A study of Mesocricetus auratus with 6 samples.

Results

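The 10 genes described here are SON, PNISR, CLK1, CLK4, LUC7L3, RBM39, ARGLU1, OGT, RSRC2 and CCNL1. They were grouped under the name of nuclear speckle genes with retained introns. OGT is an enzyme that acts on nuclear and cytosolic proteins, so the name does not describe it closely. The 10 genes were measured in pregnant uterus of the golden hamster (Mesocricetus auratus). They were represented by every probe set that the platform annotation assigns to 1 of these 10 genes alone, which gave 23 of 22215 tested probe sets (10 of 11963 genes with a probe set of their own). The genes had been chosen because their values were lower at implantation sites, so the differences between the groups below are a description of that choice and carry no test. All tissue came from untreated animals on day 5 of pregnancy. Stretches of uterus around an embryo (implantation sites, 3 arrays) were compared with the stretches between embryos (interimplantation sites, 3 arrays), and the RNA is described as coming from 3 animals. The labels call the arrays biological replicates but do not say which animal each came from, so errors measure the spread between these arrays.

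The array, from Affymetrix, carries probes against human sequences. RefSeq lists a hamster gene under the symbol of each of the 10 members (assembly BCM_Maur_2.0). Human probes can bind the hamster RNA poorly, and where a probe set is dim the RNA may still be present and may still differ. Values are the authors' log2 RMA values, in which all arrays are brought to nearly the same distribution (array medians near 4.2). Brightness below means a probe set's average over the 6 arrays, whose median over all probe sets was 4.19 and whose first quartile was 3.10. It is no measure of how much RNA 1 gene has relative to another. A piece of tissue mixes many cell types, and fewer cells of a type cannot be told apart from less RNA per cell.

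Nuclear speckles are bodies between chromatin regions in which splicing factors gather, many of them with long stretches of alternating serine and arginine (RS domains). Kinases of the CLK family phosphorylate these stretches and release SR proteins, a family of splicing factors, from speckles to sites of transcription. In human and mouse cells the transcripts of several of these genes, CLK1, CLK4 and OGT among them, are known to keep 1 or more introns while they wait in the nucleus, so that a part of their RNA is not ready for translation. The deposited value of a probe set is a single summary of its probes. Spliced and intron-containing RNA were not separated here, and the name of the group was not checked in that respect.

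Across the members, 20 of 23 probe sets had a lower mean at implantation sites and 3 a higher mean, while 53.6% of all tested probe sets were lower. The median difference was −0.28 on the log2 scale (1.22-fold lower), against −0.01 over all probe sets, and single differences ran from −0.68 to 0.11. In 15 member probe sets, from 8 of the genes, every implantation array lay below every interimplantation array, and in 0 the reverse held. Over all probe sets 8.3% were lower and 7.72% higher without overlap. In limma's fit over all probe sets with Benjamini-Hochberg adjustment, 3 member probe sets were past an adjusted p of 0.05 on the lower side and 0 on the higher side, where 0.356% of all probe sets were past it on the lower side and 0.702% on the higher side. These member counts follow from how the genes were chosen and support nothing by themselves. The count of 3 was 1 without implantation site 1 and 5 without interimplantation site 1.

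**Figure D1:**
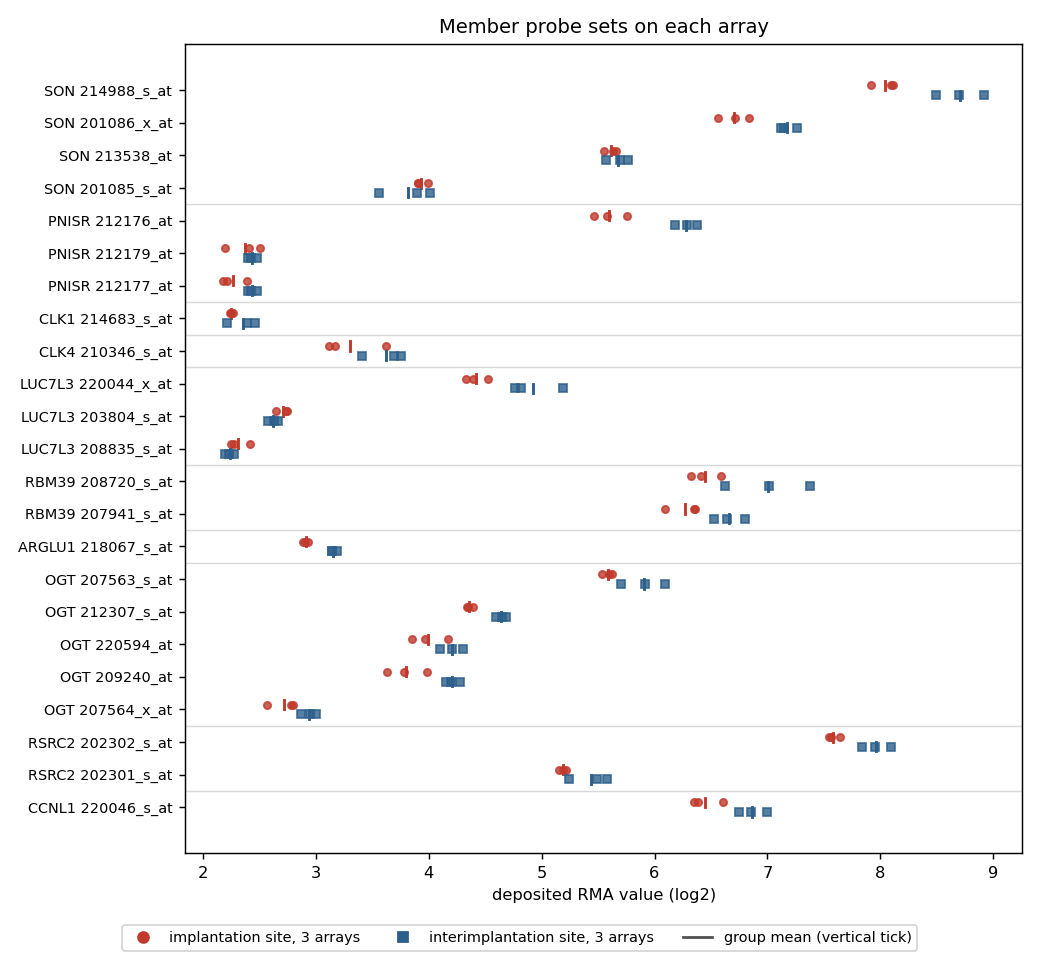
Deposited RMA values (x axis, log2) of the 23 member probe sets (rows, grouped by gene) on each array; circles are the 3 implantation arrays, squares the 3 interimplantation arrays and vertical ticks the group means. In 15 rows the circles lie wholly to the left of the squares, and the dim rows of PNISR, CLK1 and LUC7L3 lie near 2 to 3 with little distance between the groups.

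SON, a very large RS protein, is together with SRRM2 a scaffold of the speckle and promotes the splicing of weak introns, many of them in genes of cell division. Its brightest probe set, 214988_s_at, read 7.92, 8.10 and 8.11 on the 3 implantation arrays and 8.50, 8.70 and 8.92 on the 3 interimplantation arrays. The groups did not overlap and were 0.38 apart at their nearest arrays. The group means were 8.05 ± 0.11 and 8.70 ± 0.21 (SD, n = 3 each), a difference of −0.66 ± 0.11 (SE), or 1.58-fold lower.

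The next probe set of SON in brightness, 201086_x_at, read 6.57, 6.84 and 6.72 at implantation sites and 7.12, 7.26 and 7.15 at interimplantation sites, a difference of −0.47 ± 0.09 (SE). Its suffix marks it as one whose probes can also match other transcripts. The remaining SON probe sets did not share this separation. For 213538_at the values were 5.63, 5.66 and 5.55 against 5.70, 5.57 and 5.77, and for the dimmer 201085_s_at they were 3.90, 3.99 and 3.91 against 4.01, 3.56 and 3.89. In both the groups overlapped, with differences of −0.06 ± 0.08 and 0.11 ± 0.11 (SE). The SON probe sets thus differed unequally within the same arrays. The value of 214988_s_at minus that of 213538_at was 2.29, 2.44 and 2.56 on the implantation arrays and 2.80, 3.13 and 3.15 on the interimplantation arrays, without overlap. Since 214988_s_at had the lowest difference of the 4 SON probe sets, this is a description. The share of other probe set pairs that separate in this way was not counted. The mean of the 4 SON probe sets was lower by a log2 difference of −0.27.

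PNISR, an RS protein that binds the speckle protein pinin (PNN), had the largest difference of the members. Its probe set 212176_at read 5.58, 5.76 and 5.46 at implantation sites and 6.18, 6.29 and 6.38 at interimplantation sites. All 3 implantation arrays lay at least 0.43 below the lowest interimplantation array. The means were 5.60 ± 0.15 and 6.28 ± 0.10 (SD, n = 3), a difference of −0.68 ± 0.09 (SE), or 1.61-fold lower. The other PNISR probe sets, 212177_at and 212179_at, were among the dimmest of the table, with means between 2.26 and 2.43 in either group, and their differences were −0.17 ± 0.08 and −0.06 ± 0.09 (SE). With the mean of all 3 probe sets the difference of PNISR was −0.31.

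The kinases CLK1 and CLK4, which phosphorylate SR proteins, were each read by 1 dim probe set. CLK4 read 3.17, 3.62 and 3.11 at implantation sites and 3.75, 3.69 and 3.41 at interimplantation sites. The highest implantation array lay above the lowest interimplantation array, and the difference was −0.32 ± 0.13 (SE), with 0.28 and 0.18 as the SDs of the groups. CLK1 read 2.26, 2.24 and 2.24 against 2.21, 2.39 and 2.46, a difference of −0.10 ± 0.08 (SE) with overlap. Both lay under the median brightness of all probe sets, and CLK1 also under the first quartile. Of the 10 genes, CLK1 and CLK4 were the ones with 0 probe sets that separated the groups.

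CCNL1 encodes cyclin L1, a partner of the CDK11 kinases that resides in speckles. Its 1 probe set read 6.39, 6.61 and 6.35 at implantation sites and 6.75, 6.85 and 7.00 at interimplantation sites. The groups did not overlap, and the difference was −0.42 ± 0.09 (SE), or 1.34-fold lower.

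LUC7L3 and RBM39 act in the choice of splice sites. LUC7L3 is a human relative of the yeast U1 snRNP protein Luc7, which helps to define 5′ splice sites, and RBM39 is an RNA-binding relative of the large U2AF subunit, which recognises 3′ splice sites, and a coactivator of steroid receptors. Both RBM39 probe sets were lower without overlap. For 208720_s_at the values were 6.59, 6.32 and 6.41 at implantation sites and 6.63, 7.38 and 7.02 at interimplantation sites. Interimplantation site 1 lay close to the implantation arrays and the other 2 well above them, so that this group had the largest SD of all the members (0.38). The difference was −0.56 ± 0.15 (SE). For 207941_s_at the values were 6.09, 6.36 and 6.35 against 6.64, 6.80 and 6.52, a difference of −0.39 ± 0.10 (SE).

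For LUC7L3 the probe sets disagreed. The brightest, 220044_x_at, whose suffix again marks possible cross-hybridisation, read 4.53, 4.39 and 4.33 at implantation sites and 4.82, 5.19 and 4.76 at interimplantation sites. It did not overlap between the groups and its difference was −0.51 ± 0.11 (SE), or 1.42-fold lower. The dim probe sets 203804_s_at and 208835_s_at were at 0.09 ± 0.07 and 0.08 ± 0.08 (SE), with group means between 2.23 and 2.71. With the mean of the 3 probe sets the difference was −0.11, so the lower reading of LUC7L3 rests on a single probe set.

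RSRC2 and ARGLU1 are further arginine-rich proteins, and ARGLU1 is known as a coactivator of nuclear receptors as well as a modulator of splicing. RSRC2 was read by 2 probe sets above the median brightness, both without overlap. The brighter one, 202302_s_at, read 7.56, 7.55 and 7.65 at implantation sites and 7.84, 8.10 and 7.95 at interimplantation sites, a difference of −0.38 ± 0.08 (SE). The other, 202301_s_at, read 5.15, 5.22 and 5.19 against 5.58, 5.25 and 5.49, where interimplantation site 2 lay 0.03 above the highest implantation array, and its difference was −0.25 ± 0.09 (SE). ARGLU1 was dim but tight. Its probe set read 2.91, 2.93 and 2.89 at implantation sites and 3.14, 3.18 and 3.14 at interimplantation sites, SDs of 0.02 and 0.03, and the difference was −0.25 ± 0.07 (SE).

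OGT, which attaches the sugar N-acetylglucosamine to serines and threonines of nuclear and cytosolic proteins, is an enzyme rather than a splicing factor. It had the most probe sets of the members, and all 5 were lower at implantation sites, 4 of them without overlap. The brightest, 207563_s_at, read 5.54, 5.60 and 5.62 at implantation sites and 5.91, 6.10 and 5.70 at interimplantation sites, a difference of −0.32 ± 0.10 (SE). The tightest, 212307_s_at, read 4.39, 4.33 and 4.35 against 4.60, 4.65 and 4.68, a difference of −0.28 ± 0.07 (SE). The 3 dimmer probe sets, 209240_at, 207564_x_at and 220594_at, were at −0.41, −0.22 and −0.21, and the groups overlapped in the last of them. The 5 readings of OGT ran from 1.16-fold to 1.33-fold lower.

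Size of difference and brightness went together among the members. All 12 member probe sets that reached the median brightness were lower, 11 of them without overlap, with a median of −0.40. Among such bright probe sets of the whole table, 9.18% were lower without overlap and 0.612% were past the threshold on the lower side. Of the 11 dimmer member probe sets 8 were lower, 4 without overlap, with a median of −0.17. The shares among all dimmer probe sets were not counted. Over all probe sets of any brightness 53.6% were lower, and 8.3% were lower without overlap. Over the 23 probe sets the correlation of brightness with difference was r = −0.71 (rho = −0.77), a description over points that share arrays and in part genes. Over all tested probe sets it was r = 0.07. There, differences of both signs enter, while the members were chosen for lower values. Setting these correlations side by side therefore cannot show whether the relation is particular to the members. Probe sets at least 1.5-fold lower numbered 2 of the 23 members and 48 of all 22215 (0.216%).

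**Figure D2:**
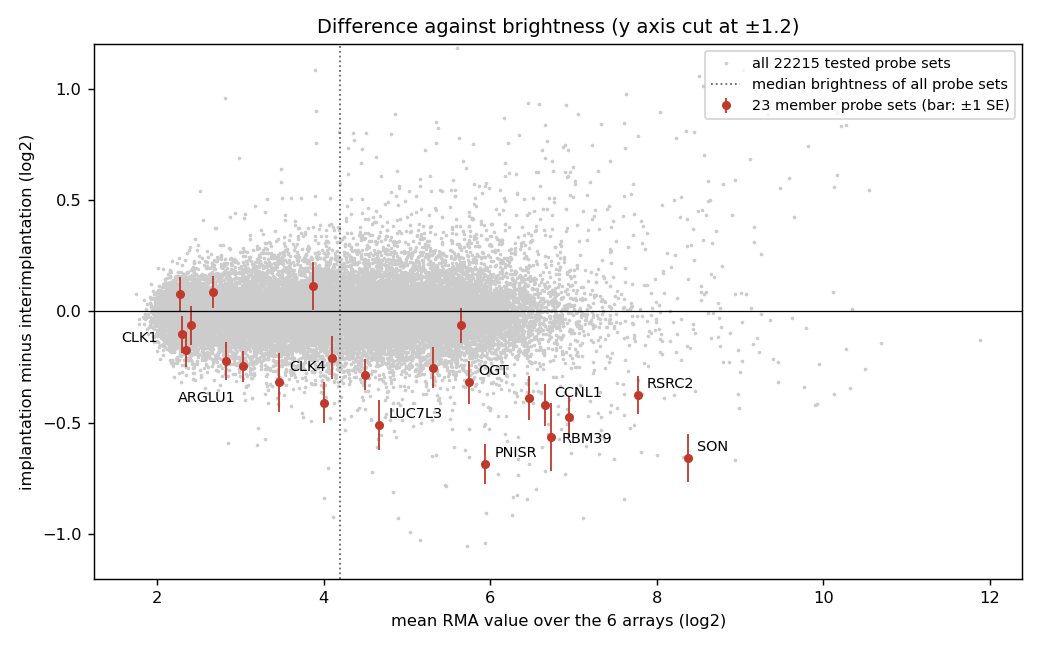
Difference between the groups (y axis, log2, implantation minus interimplantation) against brightness (x axis, mean RMA value over 6 arrays, log2) for all 22215 tested probe sets (grey) and the 23 member probe sets (red, bars ±1 SE), with each gene named at its brightest probe set; 8 points lie beyond the plotted limit of 1.2. The 12 members to the right of the dotted median line are all below 0, and the members above 0 are dim.

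Arrays of 1 group gave similar readings of the members. Averaged over the 23 probe sets, each centred on its own mean, the implantation arrays stood at −0.17, −0.09 and −0.16 and the interimplantation arrays at 0.11, 0.17 and 0.14. The lowest of the 6 values of a probe set fell on an implantation array in 19 of 23 cases, 8 of them on implantation site 1. The highest fell on an interimplantation array in 20 cases, 8 of them on interimplantation site 2. Both counts follow from how the genes were chosen, and their shares over all probe sets were not counted. When 1 array at a time was left out, the median difference of the members stayed between −0.29 and −0.25. This range and the averages above rest on the same arrays as that choice, so they are a description.

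Control probe sets meant to show RNA integrity also read differently on these arrays. They too are probes against human sequences, and whether they measure integrity of hamster RNA was not tested. The actin control read at the 3′ end minus that at the 5′ end (log2) was −2.33, −1.99 and −1.92 at implantation sites and −1.59, −1.87 and −1.65 at interimplantation sites (exact permutation p = 0.1, two-sided, the smallest that 3 against 3 arrays allow). For GAPDH the same measure was −0.30, −0.29 and −0.02 against 0.12, −0.03 and 0.31, where the groups overlapped (exact permutation p = 0.2). Implantation arrays thus had relatively more 5′ signal in actin. The 3′ end minus the middle probe set separated the groups in both controls (exact permutation p = 0.1 for each). For GAPDH it was −1.58, −1.42 and −1.30 at implantation sites and −0.96, −1.06 and −0.88 at interimplantation sites. The part of these control differences in the members' differences was not tested.

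**Figure D3:**
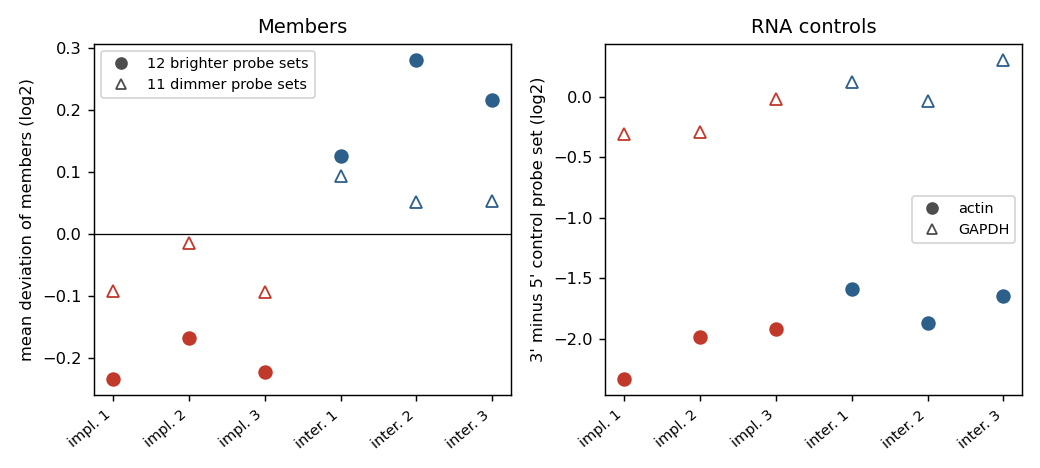
Left, mean deviation of the members from their own average on each array (log2), for the 12 brighter (filled circles) and 11 dimmer (open triangles) probe sets; right, the 3′ minus 5′ control probe sets (log2) of actin (filled circles) and GAPDH (open triangles); red marks implantation and blue interimplantation arrays. Members are below 0 on all implantation arrays and above it on all interimplantation arrays, and the actin measure is lower on the implantation arrays.

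Cell type markers moved to some degree as well. The summed level (log2) of 17 smooth muscle probe sets was 79.9 to 80.5 at implantation sites and 81.6 to 83.7 at interimplantation sites. In limma's fit 2 of them fell, ACTG2 (smooth muscle gamma-actin) and TAGLN (transgelin). The median of the 17 was −0.02 and 6 were higher, among them the brighter ACTA2 probe set (smooth muscle alpha-actin) at 0.15 without overlap. The sums were also lower without overlap for 11 epithelial probe sets (45.4 to 46.2 against 46.4 to 47.1), 11 endothelial ones (47.1 to 47.4 against 47.5 to 48.2) and 4 of red cells (25.9 to 26.5 against 26.8 to 27.0), with 0 past the threshold in each of these lists. Sums overlapped for leukocytes (53.0 to 54.2 against 53.7 to 54.4), stroma (94.3 to 95.9 against 94.8 to 95.6), trophoblast (32.1 to 32.3 against 32.3 to 32.7) and genes typical of uterus (47.2 to 47.7 against 47.5 to 48.1). Among leukocyte probe sets 1 fell (SPI1), and among stromal ones 1 rose (COL1A1) and 1 fell (PDGFRA). Log2 RMA values have no 0, so no marker could be called absent. The 12 probe sets of the 4 measured uterine genes were mostly of ESR1, the oestrogen receptor. Those that reached the median brightness, 4 of 12, were all of ESR1, and its others were dimmer. PGR, WNT4 and MSX1 had 1 probe set each and did not reach it. The part of cell composition in the members' differences was not tested.

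To place the members among the machinery they belong to, 140 related genes in 9 lists were read in the same fit. Of these, 110 had 228 probe sets of their own. Over all 228 the median difference was −0.00, 114 were lower, 6 rose and 3 fell in limma's test at an adjusted p of 0.05, while 1.06% of all probe sets passed in either direction. By unadjusted p below 0.05, 24 were higher and 17 lower, where 5.27% of all tested probe sets were higher and 5.23% lower by that measure (10.5% in all). The 6 that rose became 3 without interimplantation site 3. The 3 that fell became 1 without implantation site 1, implantation site 3 or interimplantation site 3, and 5 without interimplantation site 1.

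Those relatives of the kinases and of cyclin L1 that had probe sets of their own gave 0 calls. Among 24 probe sets of other SR protein kinases (CLK2, CLK3, the SRPK and DYRK families and relatives) the median was −0.00 and 2 were lower by unadjusted p below 0.05. The smallest p belonged to 1 of 4 probe sets of DYRK1A, a kinase that also phosphorylates splicing factors (−0.34 ± 0.08 SE, limma adjusted p = 0.101), whose others were at −0.01, −0.07 and 0.12. Next came 1 of 2 probe sets of HIPK1, a related nuclear kinase (−0.33 ± 0.13 SE, adjusted p = 0.367), whose brighter one was at 0.04. Among 16 probe sets of partners and relatives of cyclin L the median was −0.07, with 1 higher and 2 lower by unadjusted p below 0.05. The CDK11 kinases had no probe set of their own among them and were not read here. The brightest of 5 probe sets of CDK13, a kinase of the transcribing polymerase, was at −0.37 ± 0.08 (SE, adjusted p = 0.0592), and passed after repeated quantile normalization (0.0483), with array weights (0.0393) and among bright probe sets (0.0422). The other CDK13 probe sets were at −0.12, −0.07, −0.29 and 0.16, the last of them higher without overlap. CCNH, the cyclin of CDK7, was at 0.20 ± 0.08 (SE, adjusted p = 0.390).

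In the list of 3′ splice site factors and partners of RBM39, 2 probe sets rose and 0 fell. DHX15, a helicase that takes spliceosomes apart, rose by 0.46 ± 0.07 (SE, limma adjusted p = 0.0106, 0.0517 without implantation site 2). U2AF2, the large U2AF subunit to which RBM39 is related, rose by 0.44 ± 0.09 (SE, adjusted p = 0.0472). Leaving out any 1 of 5 arrays ended this call (adjusted p as high as 0.195), as did dropping probe sets marked for cross-hybridisation (0.0562). The other U2AF2 probe sets were at 0.41 and −0.02. The 44 probe sets of this list had a median of −0.03, with 5 higher and 5 lower by unadjusted p below 0.05.

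In the list of the U1 snRNP and the LUC7 family 0 of 19 probe sets passed in limma's test, with 1 higher and 2 lower by unadjusted p below 0.05 and a median of −0.06. SNRPA, a protein of the U1 snRNP, was at 0.46 ± 0.11 (SE, adjusted p = 0.0693) and passed without interimplantation site 2 (0.0457) and among bright probe sets (0.0486). Of the 5 probe sets of RBM25, which helps U1 at weak sites, 212030_at was at −0.19 ± 0.07 (SE, adjusted p = 0.390), and the brightest, 212031_at, at 0.17. The rest were at 0.12, −0.12 and −0.06.

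Other scaffold and RS-domain proteins of the speckle did not share the members' direction in these counts. Of 54 probe sets 25 were lower, the median was 0.01, and 0 passed in limma's test, with 7 higher and 0 lower by unadjusted p below 0.05. TRA2B, a splicing activator, was at 0.52 ± 0.14 (SE, adjusted p = 0.134, 0.0320 without interimplantation site 2), and its other probe sets at 0.26 and 0.22. SRRM1, a coactivator of splicing, was at 0.28 ± 0.12 (SE, adjusted p = 0.398) in its brighter probe set and at −0.11 in the other. In this list 1 probe set was lower without overlap and 5 were higher without overlap, out of 54. Over all tested probe sets 8.3% were lower and 7.72% higher without overlap, so the 5 are near the share of the whole table. Whether this list differs from the members was not tested, since the members were chosen for their direction.

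SR proteins, the substrates of the CLK kinases, held 6 of the 9 calls and went both ways, with 4 probe sets that rose and 2 that fell out of 26. Over all tested probe sets 0.702% passed on the higher side and 0.356% on the lower. Probe sets of 1 gene are not independent readings, and 3 of these calls are of SRSF1. The list was chosen with earlier results of these data known, so its number of calls is a description. SRSF1 rose at 3 of its 4 probe sets, by 0.81, 0.78 and 0.75 (limma adjusted p = 0.00313, 0.00475 and 0.0412), and SRSF3 at 1 of 3 (0.65, adjusted p = 0.00980, 0.0570 without interimplantation site 3). SRSF7 fell at 1 of 4 probe sets (−0.93 ± 0.09 SE, adjusted p = 0.000971), and with the mean of its probe sets was at −0.17 (adjusted p = 0.344). SRSF5 fell at 1 of 3, 203380_x_at, whose suffix marks possible cross-hybridisation (−0.42, adjusted p = 0.0220). Its brightest probe set, 212266_s_at, was at −0.47 without overlap (limma adjusted p = 0.154), and the dim 210077_s_at at −0.01. The calls of SRSF5 and of the third SRSF1 probe set, named here after their values were seen, were each lost without any 1 of 5 arrays (adjusted p as high as 0.114 and 0.170), and the latter also with array weights (0.0611). By unadjusted p below 0.05 the list had 7 higher and 3 lower, and its median was 0.11.

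**Figure D4:**
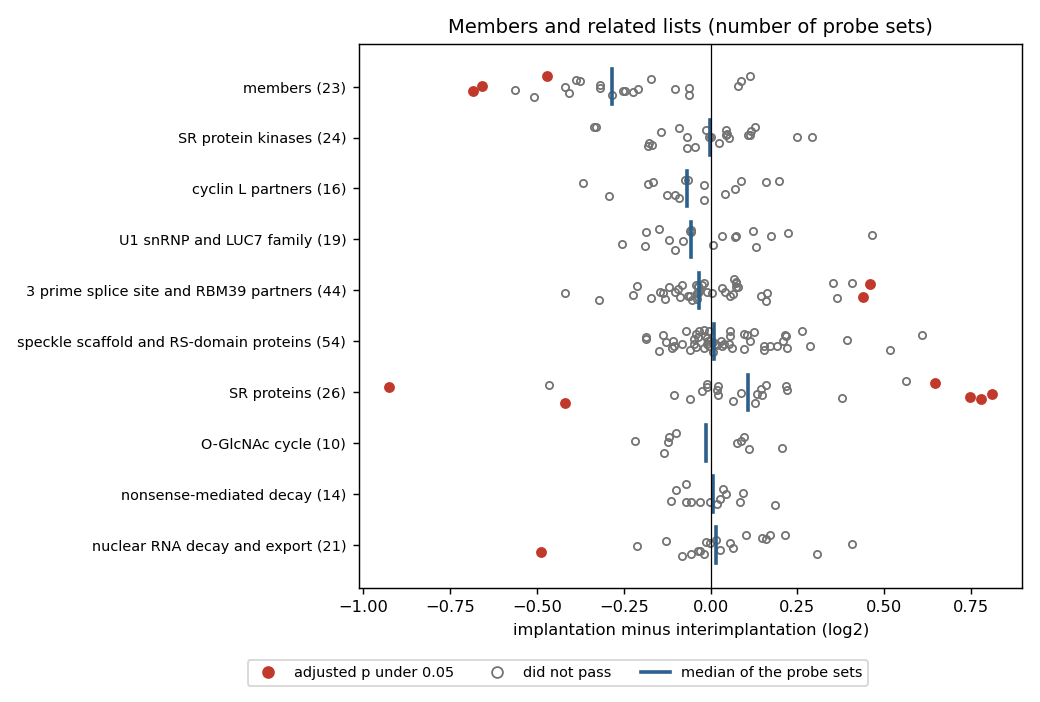
Differences between the groups (x axis, log2, implantation minus interimplantation) of the 23 member probe sets and of the probe sets in 9 related lists (rows, number of probe sets in brackets); filled red points passed limma's adjusted p of 0.05, open points did not, and blue ticks are medians. The members were chosen for lower values and have a median of −0.28, the medians of the 9 lists lie between −0.07 and 0.11, and the SR proteins have calls on both sides.

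For OGT the other genes of the sugar cycle were read. OGA, the enzyme that removes the sugar again, was lower in each of 3 readings, with −0.22 ± 0.08 (SE, limma adjusted p = 0.296) at the dim 200899_s_at and −0.12 and −0.14 at the others, and none passed. GFPT1, the rate-limiting enzyme of the pathway that supplies the sugar donor, was at 0.21 ± 0.09 (SE, adjusted p = 0.457) in its brighter probe set and at 0.09 in the other. Of the list's 10 probe sets 0 passed, 1 was higher and 1 lower by unadjusted p below 0.05, and the median was −0.01.

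Pathways that dispose of or hold back RNA gave 1 call. In nonsense-mediated decay, which destroys RNA with early stop codons in the cytoplasm, 0 of 14 probe sets passed in limma's test and 0 reached an unadjusted p of 0.05. The helicase UPF1 was at 0.19 ± 0.11 (SE, adjusted p = 0.617) in 1 probe set and at −0.11 in the other, and its partner UPF2 at −0.10 ± 0.10 (SE, adjusted p = 0.789). Among 21 probe sets of nuclear RNA decay and export 1 fell. ZFC3H1, which links polyadenylated nuclear RNA to the exosome, read 6.59, 6.82 and 6.81 at implantation sites and 7.21, 7.15 and 7.33 at interimplantation sites. It fell by 0.49 on the log2 scale (limma adjusted p = 0.0229), and missed the threshold without implantation site 1 (0.0888), implantation site 3 (0.0645) or interimplantation site 3 (0.104). By unadjusted p below 0.05 that list had 2 higher and 2 lower, with a median of 0.02.

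The probe sets outside the members whose values followed the members' average most closely over the 6 arrays were taken from 19042 probe sets with 1 gene. Both groups are in these 6 points, so the correlation mostly reflects the difference between them, and it is a description. SRSF7 213649_at came first (r = 0.996), with 6.53, 6.85 and 6.58 at implantation sites and 7.49, 7.62 and 7.63 at interimplantation sites. WIPI1, which acts in autophagy, followed (r = 0.995, difference −0.44). KDM6A, a histone demethylase (r = 0.994, −0.73), ACVR1B, an activin receptor (r = 0.994, −0.56), and FUBP1, a DNA- and RNA-binding regulator (r = 0.991, −0.36), completed the 5. Other probe sets of these genes often read otherwise. For FUBP1 the brightest, 203091_at, was at 0.37, on the other side of 0, and 214093_s_at was at −0.57. The 5 remaining probe sets of ACVR1B lay between −0.05 and 0.15, the 2 of KDM6A were at −0.10 and −0.06, and the 1 of WIPI1 was at 0.07.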

How the data were processed

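RNA of 6 uterus samples was read on an Affymetrix array with human probes. The submitters' processing notes name RMA and Partek 6.6. The deposited values, 1 for each array and probe set, ran from 1.65 to 12.1 and were read as log2, since neither their log base nor the settings are stated. The table held 22283 probe sets; 68 controls were left out and 22215 tested. Platform annotation gave 1 gene to 19065, several to 1043 and none to 2107. The labels list the same staining reagents for all 6 arrays and no scan batch, so no batch was tested.

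The labels' groups were tested in limma 3.58.1 (R 4.3.3: lmFit, eBayes, 2 groups, two-sided, Benjamini-Hochberg over all probe sets, threshold 0.05). The fit was tested on simulated data. Differences are implantation minus interimplantation. The number of arrays limits the precision; the median SE was 0.085.

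The members and lists were chosen with earlier results of these data known. Named probe sets were all members, up to 4 calls per list or else the 2 genes with the smallest p, and the 5 most alike in pattern. Of 140 related genes, 110 were measured by a probe set of their own and 10 more only by probe sets shared with another gene. Alternatives were other normalizations, array weights, an intensity trend, filters on brightness and cross-hybridisation, 1 value per gene, a replicate block and leaving out each array. No sequence is printed.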

Additional observations from a re-analysis of the deposited data

How the results depend on the processing

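Under the 4 alternatives that rescale or reweight arrays, the members' differences shifted by at most 0.104. The filters, the intensity trend and the block leave a probe set's difference as it is. Without single arrays 2 values changed sign, both of probe sets near 0 (SON 201085_s_at and PNISR 212179_at). The members' median was −0.40 both among bright probe sets (12 left by construction) and at the brightest probe set per gene (10 values). The counts of members that follow reflect how the genes were chosen. In the main fit 0.612% of all bright probe sets were past the threshold on the lower side. Member probe sets past the threshold on the lower side, 3 of 23, became 7 with array weights, 6 of 12 among bright probe sets and 1 of 10 with averaged probe sets (gene means), and ran from 1 to 5 when single arrays were left out; 0 passed on the higher side throughout. Over all probe sets 156 were higher and 79 lower; the lower count was 133 with array weights and 26 with gene means, and the higher count 93 at the brightest probe set per gene and 73 with gene means (fewer features tested). Without single arrays these ran from 83 to 140 and from 33 to 90. Related probe sets that rose (6) were 2 at the brightest probe set per gene and 3 with gene means, and 3 to 7 without single arrays; those that fell (3) were 5 with array weights, 1 with gene means, and 1 to 5 without single arrays. Where no construction shows it, the cause was not tested. The labels give both groups replicate numbers 1 to 3 but tie no array to an animal. Deviations of same-numbered arrays correlated at 0.05, −0.00 and 0.07. Implantation sites 1 and 3 correlated best with their own number, and implantation site 2 with interimplantation site 3 (0.02). Correlations this small cannot settle whether arrays are paired by animal, and the numbers were not taken as pairs in the main fit. With the replicate block 159 probe sets were higher and 93 lower, 3 members were past the threshold and their median was −0.28. Actin and GAPDH differed between the groups in the same direction with the middle probe set (−0.29 and −0.46). Background was not measured here, so how far low signal limits the dim members is unknown.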
